A study of Mus musculus with 20 samples.

Results

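SR proteins and heterogeneous nuclear ribonucleoproteins (hnRNPs) are the RNA-binding proteins that tell the spliceosome which exons to use. The genes described here are all those whose mouse symbol is Srsf, Hnrnp (or the older spelling Hnrp), Srrm or Ptbp followed by its number or letters, together with Tra2a, Tra2b and Rnps1, which gave 41 of the 34937 genes counted. RNA of single 8-cell (8C) embryos at embryonic day 2.5 (E2.5) was compared between 9 Ehmt2Cntr embryos, which by genotype had inherited G9a from the oocyte, and 10 Ehmt2Mat embryos, which had not. Ehmt2 encodes G9a, the enzyme that dimethylates lysine 9 of histone H3. Control mothers were Ehmt2F/+ and Ehmt2Mat mothers Ehmt2F/-, both on a mixed background and both carrying Zp3-Cre, which deletes the floxed allele in the growing oocyte, and the fathers were Ehmt2+/-. The embryo therefore had its own zygotic genotype, which was +/+ in 6 and +/- in 3 controls, and +/- in 5 (Ehmt2M/+) and -/- in 5 (Ehmt2M/Z) maternally depleted embryos. Only embryos of normal morphology were taken, the zona pellucida was removed before lysis, and the amplification of cDNA favoured 3′ ends.

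SR proteins carry RNA recognition motifs and a tail rich in arginine and serine, bind exonic enhancers and recruit the splicing machinery, and several of them also help to export mRNA. Proteins of the hnRNP group coat nascent transcripts and often act in the opposite direction, hiding splice sites or exons, although either group can do both. Many of these genes tune their own level by making a transcript with a premature stop codon that is then degraded, and in the early embryo their products arrive first with the oocyte and are later made from the embryo's own genome.

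Of the 41 genes, 38 had enough counts to be tested. Srsf12 and Srrm3 had 0 counts in every embryo and Srrm4, a neuronal splicing activator, had at most 23 counts in an embryo. A gene was called at an adjusted p under 0.05 in edgeR's quasi-likelihood test with Benjamini-Hochberg adjustment over all 11754 tested genes, and each adjusted p below comes from that test unless another is named. Levels are CPM (counts scaled to the library size) and, where genes are compared with each other, CPM per kilobase of exon (RPKM). In Ehmt2Mat embryos 4 members were higher (Rnps1, Hnrnpc, Hnrnpa2b1 and Hnrnph2) and 4 lower (Hnrnpab, Srsf2, Srsf6 and Hnrnpll), which is 21.1% of those tested. Over all tested genes 9.35% were called, 4.37% higher and 4.98% lower. Most members were well expressed, and when only genes with at least 10 counts in every embryo were tested, 19.2% of all genes were called, against 11 of 37 members. At an unadjusted p under 0.05 there were 15 members of 38, beside 23.3% of all genes, and DESeq2 called 13 members, beside 13.6% of all genes. The median log2 fold change of the tested members was -0.03, beside -0.04 for all tested genes, and 14 estimates were above 0 and 24 below. Together the members took 1.16% to 1.54% of the counts of a control embryo (median 1.26%) and 0.944% to 1.35% of those of an Ehmt2Mat embryo (median 1.13%).

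**Figure D1:**
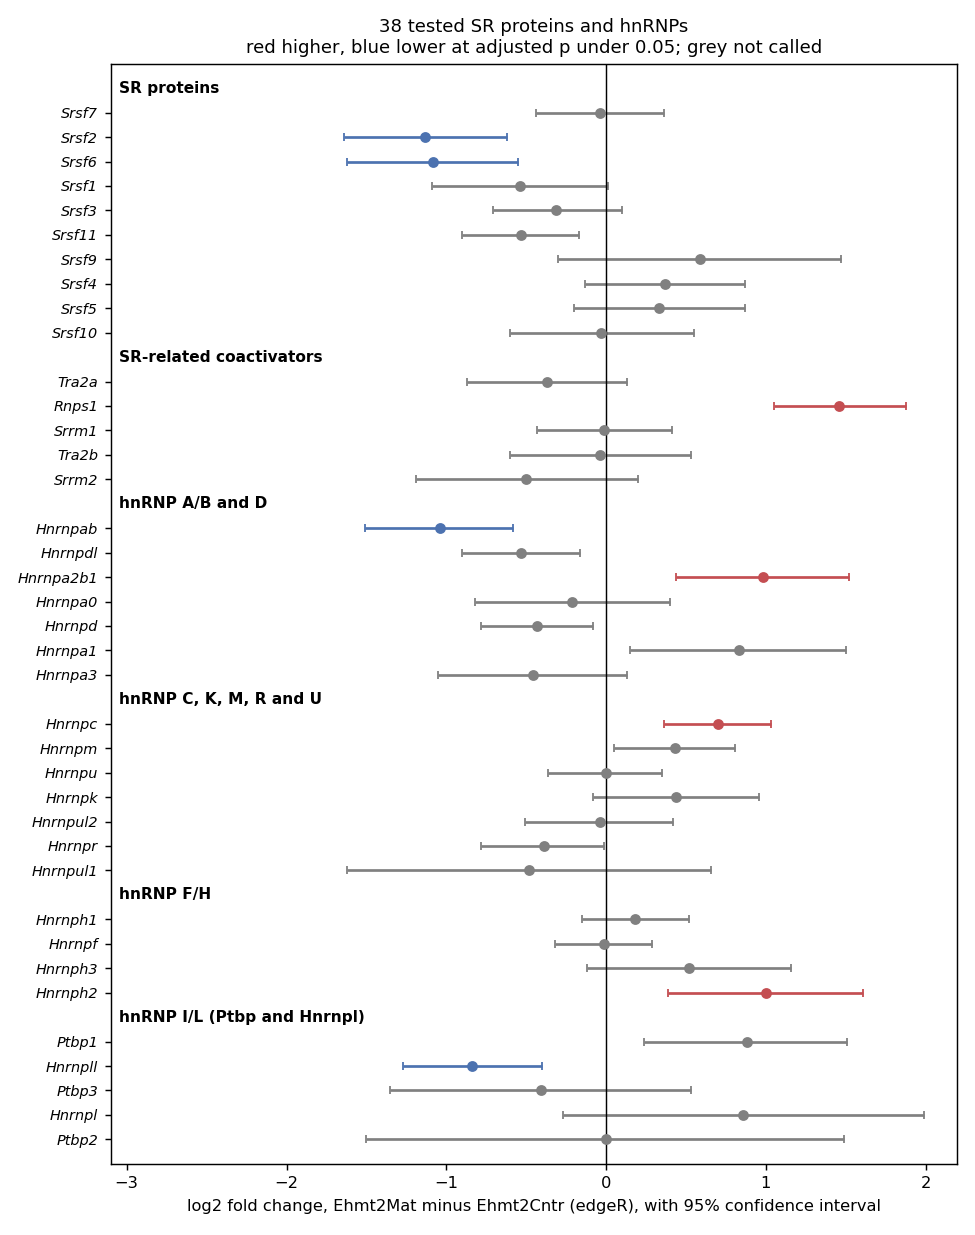
Log2 fold change of Ehmt2Mat over Ehmt2Cntr embryos (x axis) with its 95% confidence interval for the 38 tested members, grouped by role. The 4 members called higher (red) and the 4 called lower (blue) are spread over all 6 role groups, with estimates from 1.46 for Rnps1 to -1.13 for Srsf2.

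An embryo had 8231646 to 30602434 counts in total, which makes 3 counts worth 0.0911 to 0.363 CPM. More genes were detected in Ehmt2Mat embryos (median 14487.5) than in controls (median 12848), and Ehmt2Cntr replicate 10, with 16142, lay outside the 12068 to 13230 of the other controls. Reads on Ehmt2 were counted in every embryo, with a mean of 141 CPM (SD 59.7, n = 9) in controls against 102 CPM (SD 32.7, n = 10) in mutants (log2 fold change -0.47, SE 0.24, adjusted p = 0.233), so maternal depletion rests on the genotype and was not shown by these counts. Of 10 preimplantation markers 7 were counted in every embryo, and 3 of them were called: Tead4 (0.90) and Tfap2c (0.75) higher, and Gata6 (-1.85) lower on the log2 scale (adjusted p = 0.0046, 0.0183 and 0.0041). Of 8 cumulus and granulosa cell markers, Amh, Fshr, Foxl2, Has2 and Ptx3 were at 0 in every embryo, and the list summed to 0 to 5.02 CPM in controls and 0 to 38.2 CPM in Ehmt2Mat, the top value being Inha in Ehmt2Mat replicate 3. Of 5 sperm markers 3 were at 0 in every embryo, and the list summed to at most 0.769 CPM in controls and 1.23 CPM in Ehmt2Mat. The part of other cells and of the number of detected genes in the differences below was not tested. CPM are scaled to the library, so the cell number and total RNA of an embryo are not measured. In RNA of whole embryos, fewer cells with a transcript and less of that transcript per cell cannot be told apart. Since mothers are not named in the labels and differed between the groups, maternal genotype and mother cannot be told apart either.

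Among the 10 tested SR proteins, 2 were lower in Ehmt2Mat, 0 were higher, and the median log2 fold change was -0.17. Srsf2 (SC35, a component of nuclear speckles that promotes exon inclusion; ENSMUSG00000034120, GRCm38 chromosome 11, 116849901 to 116853094, minus strand) lay between 897 and 1710 CPM in controls (median 982) and between 226 and 969 CPM in Ehmt2Mat embryos (median 452). All but 1 of the mutants were below the lowest control, with Ehmt2Mat replicate 10, at 969, inside the control range. The means of 1120 ± 260 and 511 ± 255 CPM (here and below ± SD, n = 9 controls and n = 10 mutants unless stated) were 2.19-fold apart (log2 fold change -1.13, SE 0.25, adjusted p = 0.00514). Srsf6 (SRp55, which like other SR proteins binds exonic enhancers; ENSMUSG00000016921, chromosome 2, 162931528 to 162937121, plus strand) lay between 595 and 1110 CPM in controls (median 697) and between 79.9 and 695 CPM in Ehmt2Mat (median 348). Again 9 of 10 mutants were below every control and replicate 10, at 695, was not, while replicate 1 held the lowest value. Its mean went from 750 ± 155 to 354 ± 175 CPM, a log2 fold change of -1.08 (SE 0.26, adjusted p = 0.00933).

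The other 8 tested SR proteins were not called. Srsf11, an arginine- and serine-rich splicing factor, came nearest, with 211 to 366 CPM in controls (median 302) and 102 to 294 CPM in Ehmt2Mat (median 201). Every Ehmt2Mat embryo was below the control median and 7 were below all controls, yet the log2 fold change of -0.53 had an adjusted p of 0.0588. Srsf1 (SF2/ASF), the founding member of the family, had -0.54 (adjusted p = 0.222) with a 95% confidence interval of -1.09 to 0.01. Srsf7, a shuttling protein that takes part in mRNA export, was the SR gene with the highest level per length, at 287 RPKM over all embryos. Its CPM were 438 to 1060 in controls (median 604) and 467 to 1050 in Ehmt2Mat (median 609), and the groups overlapped almost completely. The log2 fold change of Srsf7 was -0.04 with a 95% confidence interval of -0.44 to 0.36, so that a change of the size seen for Srsf2 lay outside the interval. The interval of Srsf3, the close relative of Srsf7, was -0.71 to 0.10. Srsf4, Srsf5 and Srsf9 had estimates above 0 (0.37, 0.33 and 0.59), and Srsf10 was at -0.03, none of them called.

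Rnps1 was the member with the smallest adjusted p. It is an SR-related protein that joins the exon junction complex through the ASAP and PSAP complexes, and so links splicing to export and to nonsense-mediated decay (ENSMUSG00000034681, chromosome 17, 24414675 to 24425895, plus strand). Controls lay between 28.2 and 48.0 CPM (median 40.9) and Ehmt2Mat embryos between 53.3 and 153 CPM (median 107). It was the only member whose groups did not overlap, which held for 0.519% of all tested genes (0.34% with Ehmt2Mat above). The means were 40.1 ± 6.89 and 111 ± 31.0 CPM, 2.76-fold higher in Ehmt2Mat (log2 fold change 1.46, SE 0.20, adjusted p = 2.11e-04). The other 4 tested SR-related genes were not called. The matrix proteins Srrm1 and Srrm2 had log2 fold changes of -0.01 and -0.50, and the Transformer-2 homologs Tra2a and Tra2b, which bind GA-rich exonic enhancers, had -0.37 and -0.04. Tra2a had the highest level per length of this group (56.0 RPKM), with 226 to 651 CPM in controls (median 442) and 114 to 610 CPM in Ehmt2Mat (median 318), an overlap of nearly the whole range (adjusted p = 0.384).

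Of the 7 hnRNP A/B and D genes, 1 was lower, 1 was higher and 5 were not called. Hnrnpab, a protein of the A/B type that binds RNA in nucleus and cytoplasm (ENSMUSG00000020358, chromosome 11, 51600100 to 51606847, minus strand), was the member with the highest level per length in the whole set, at 833 RPKM in controls and 404 RPKM in Ehmt2Mat. Its CPM were 1490 to 3700 in controls (median 2170) and 584 to 1910 in Ehmt2Mat (median 1020). All 10 mutants were below the control median and 7 were below every control. The log2 fold change was -1.04 (SE 0.23, adjusted p = 0.00501), with means of 2320 ± 711 and 1120 ± 452 CPM. Hnrnpa2b1, which binds pre-mRNA and sorts RNAs for transport (ENSMUSG00000004980, chromosome 6, 51460932 to 51469894, minus strand), went the other way. It had 114 to 797 CPM in controls (median 329) and 506 to 1180 CPM in Ehmt2Mat (median 775). All mutants exceeded the control median and 5 exceeded every control, the highest control being replicate 10. Its means of 418 ± 214 and 825 ± 204 CPM gave a log2 fold change of 0.98 (SE 0.26, adjusted p = 0.0189).

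Among the paralogs of these genes, Hnrnpa1, a repressor of exon inclusion, had 5.36 to 15.4 CPM in controls and 11.7 to 31.2 CPM in Ehmt2Mat, with all 10 mutants above the control median. It was not called (log2 fold change 0.83, adjusted p = 0.117). Hnrnpdl and Hnrnpd, both AU-rich element binding proteins, had -0.53 (adjusted p = 0.0654) and -0.43 (adjusted p = 0.115), and 6 and 7 of 10 mutants were below every control. Hnrnpa0 (-0.21) and Hnrnpa3 (-0.46) were not called. The median over the 7 genes was -0.43.

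**Figure D2:**
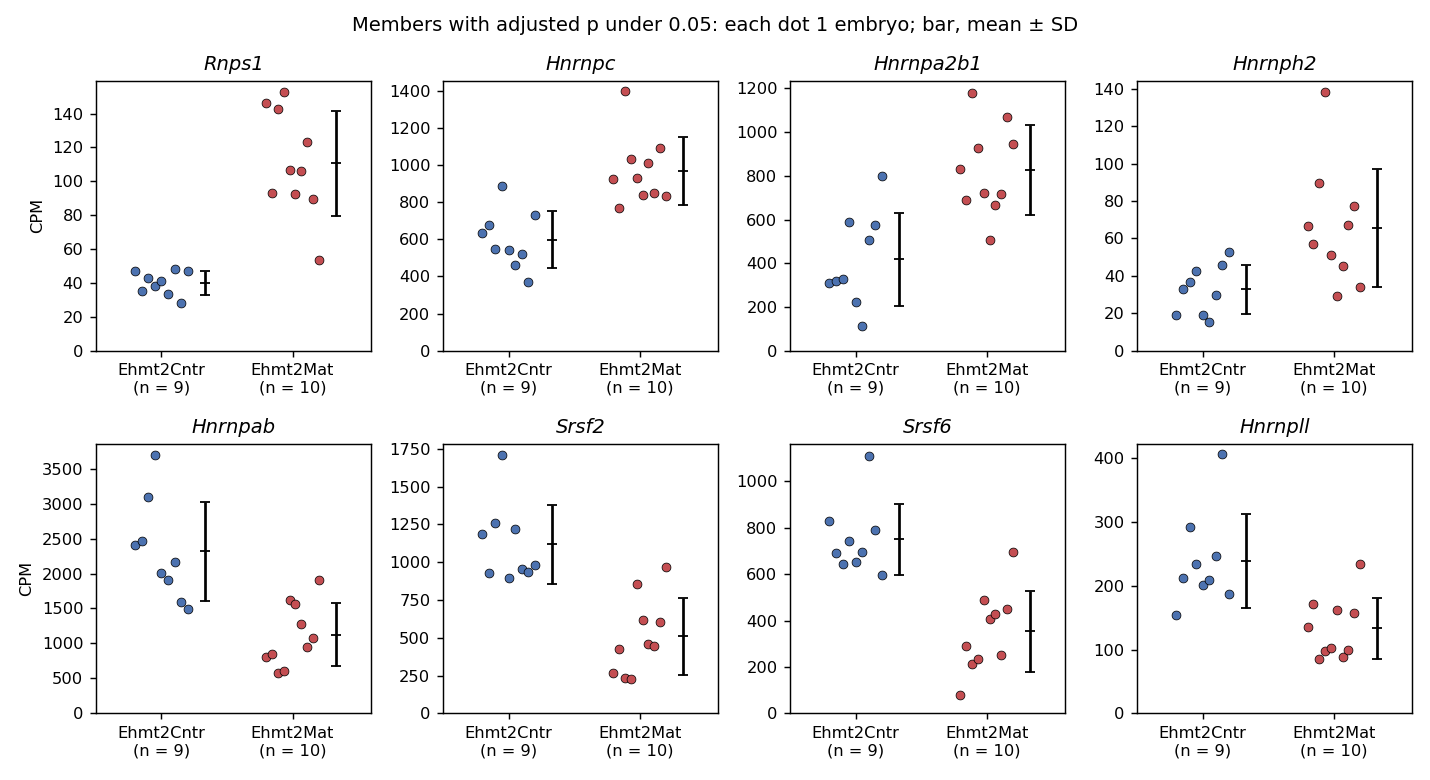
CPM (y axis, from 0) of the 8 called members in each of 9 Ehmt2Cntr (blue) and 10 Ehmt2Mat (red) embryos, with mean and SD to the right of the points. Only the Rnps1 groups do not overlap, and for Srsf2 and Srsf6 a single Ehmt2Mat embryo, replicate 10, sits inside the control range.

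Hnrnpc was the called gene of the C, K, M, R and U group. Its protein binds uridine tracts along long pre-mRNAs (ENSMUSG00000060373, chromosome 14, 52073380 to 52104028, minus strand). The controls lay between 371 and 889 CPM (median 550) and Ehmt2Mat embryos between 768 and 1400 CPM (median 929). All mutants were above the control median, and 6 were above the highest control. Means of 598 ± 155 and 968 ± 183 CPM gave a log2 fold change of 0.70 (SE 0.16, adjusted p = 0.00807). The nuclear matrix protein gene Hnrnpu had 420 to 835 CPM in controls and 448 to 1000 CPM in Ehmt2Mat, and the 95% confidence interval of its log2 fold change, -0.36 to 0.35, was centred on 0. Hnrnpk (0.44), Hnrnpm (0.43), Hnrnpr (-0.39), Hnrnpul1 (-0.48) and Hnrnpul2 (-0.04) were not called, although all 10 mutants were below the control median of Hnrnpr.

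Of the 4 hnRNP F/H genes, whose proteins bind runs of guanines, Hnrnph2 was higher (ENSMUSG00000045427, chromosome X, 134601179 to 134607060, plus strand). Values were 15.6 to 52.7 CPM in controls (median 32.9) and 29.4 to 138 CPM in Ehmt2Mat (median 61.8), and 6 mutants were above every control. The log2 fold change was 1.00 (SE 0.30, adjusted p = 0.0331) between means of 32.7 ± 13.1 and 65.4 ± 31.4 CPM. This was the least firm call of the 8. It was lost, with an adjusted p of up to 0.0786, when Ehmt2Cntr replicate 1, 2, 6, 7 or 8 or Ehmt2Mat replicate 3, 4 or 9 was left out. Hnrnph1, at 95.4 RPKM the most abundant per length of the 4, had 394 to 678 CPM in controls (median 477) and 442 to 831 CPM in Ehmt2Mat (median 549), with a log2 fold change of 0.18 (95% confidence interval -0.15 to 0.52). Hnrnph3 (0.52) and Hnrnpf (-0.01, 95% confidence interval -0.32 to 0.29) were not called.

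In the I/L group, Hnrnpll, known for its part in CD45 splicing in lymphocytes, was lower (ENSMUSG00000024095, chromosome 17, 80029487 to 80062334, minus strand). It had 155 to 407 CPM in controls (median 213) and 85.9 to 234 CPM in Ehmt2Mat (median 119), with 6 mutants below every control. The log2 fold change was -0.84 (SE 0.21, adjusted p = 0.0130), from 239 ± 74.1 to 134 ± 47.6 CPM. Its relative Hnrnpl was near the lower end of detection, at 0.509 to 12.2 CPM in controls and 3.80 to 16.5 CPM in Ehmt2Mat, and was not called. Ptbp1, the polypyrimidine tract-binding protein that represses many exons, had the highest level per length of the group (202 RPKM). It had 215 to 1070 CPM in controls (median 656) and 411 to 2580 CPM in Ehmt2Mat (median 1100), with 9 mutants above the control median. Its log2 fold change of 0.88 (SE 0.31) had an adjusted p of 0.0718, which came to 0.0494 without Ehmt2Cntr replicate 10 and to 0.0300 without Ehmt2Mat replicate 10. The paralogs Ptbp2 and Ptbp3 had wide intervals, -1.50 to 1.49 and -1.35 to 0.53.

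**Figure D3:**
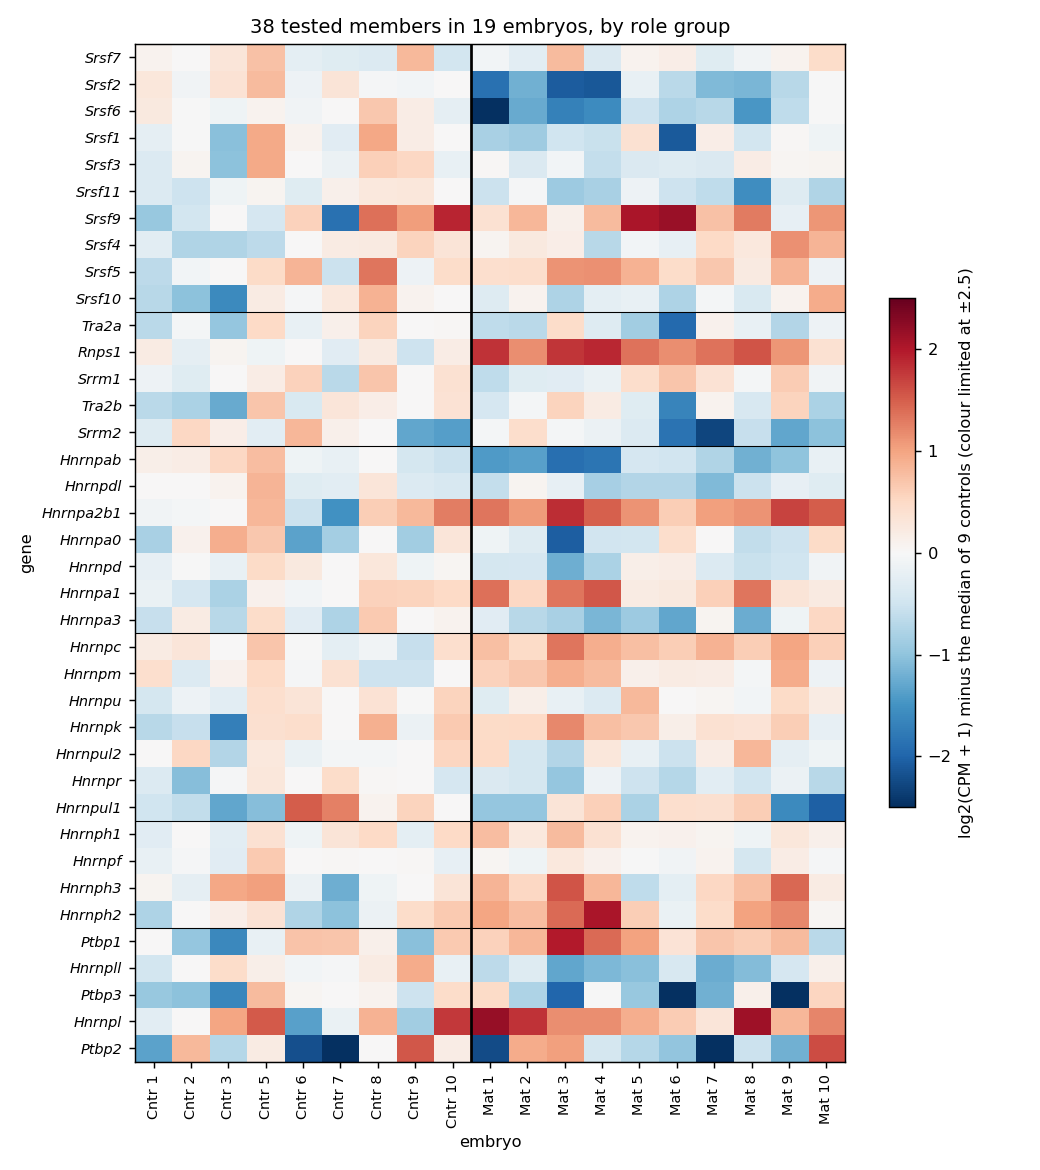
Each row is 1 of the 38 tested members and each column 1 embryo (Cntr, Ehmt2Cntr; Mat, Ehmt2Mat), coloured by log2(CPM + 1) minus the median of the 9 controls, with role groups separated by lines. The Rnps1 row is red in all 10 Ehmt2Mat embryos, and the Srsf2 and Srsf6 rows are palest, among the mutants, in replicate 10.

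The embryos at the edges of the groups were few. Ehmt2Mat replicate 10, an Ehmt2M/+ embryo, was the mutant nearest to the controls for 5 of the 8 called members (Rnps1, Hnrnpab, Srsf2, Srsf6 and Hnrnpll). Replicates 3 and 4 held the most distant value for 4 and 3 of them. Without Ehmt2Mat replicate 10 all 8 calls were kept, with log2 fold changes of 1.55 for Rnps1, -1.28 for Srsf2 and -1.25 for Srsf6. Ehmt2Cntr replicate 10, the control with the most detected genes, was the control nearest to the mutants for Srsf6 (595 CPM), Hnrnpab (1490 CPM), Hnrnpa2b1 (797 CPM) and Hnrnph2 (52.7 CPM). Leaving it out kept the 8 calls too, moved Hnrnpa2b1 from 0.98 to 1.15, and added Hnrnpdl and Ptbp1. Without Ehmt2Mat replicate 3, the embryo with counts on Inha, 7 of the 8 calls were kept and Hnrnph2 was lost.

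Some counts were shared between genes. Reads were counted without strand and for every gene they overlapped, and 29.1% of the exon bases of Hnrnpab also belonged to Phykpl, a metabolic enzyme gene on the opposite strand, whose own log2 fold change was -1.06 (adjusted p = 0.00594). For Srsf2, 15.6% of exon bases belonged to Mettl23 (log2 fold change -1.06, adjusted p = 0.0133) and 9.74% to Mfsd11 (-0.56, adjusted p = 0.451), again on the opposite strand. Reads on the shared bases cannot be told apart. The counts that cannot be shared were at least the member's count less that of its partners. For Hnrnpab this remainder was 512 to 1160 CPM in controls (median 731) and 195 to 542 CPM in Ehmt2Mat (median 400). For Srsf2 it was 492 to 994 CPM in controls (median 612) and 115 to 482 CPM in Ehmt2Mat (median 265). The remainder of Srsf2 did not overlap between the groups, and that of Hnrnpab was below every control in 7 of 10 mutants, as for the whole count. Since a remainder is only a lower bound, it cannot decide whether the counts that cannot be shared differed, and this was not tested. The other 6 called members overlapped no gene, while among uncalled ones Srsf4 shared 43.0% of its exon bases with Gm12992, Hnrnpu 30.8% with an unnamed gene on its own strand, and Hnrnpm 24.9% with March2.

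Copies elsewhere in the genome were a further limit for some hnRNPs. In annotated transcripts, 43.2% of the 50-base windows of Hnrnpf, 28.2% of those of Hnrnpa1 and 26.9% of those of Hnrnpa3 occurred identically in another gene. The other genes were mostly pseudogenes (7 of 9 for Hnrnpf, 19 of 20 for Hnrnpa1 and 41 of 45 for Hnrnpa3). The levels of these 3 are therefore uncertain. Of the called members, Hnrnph2 shared 15.9% of its windows, Rnps1 10.8% (with the copy Gm9825) and Hnrnpc 8.28%, the other 5 under 1%. Windows covered all annotated transcripts, so these shares need not hold for the counted exons. For Rnps1, 573 of 5309 windows were shared, while its counted exons held 1920 bases. The copies sharing most windows with Hnrnph2, Rnps1 and Hnrnpc had no counts of their own here, so reads on them could not be checked. The median over the 38 tested members was 0.611%. The annotation also lists unproductive transcripts for many of these genes. It does not show how often they are made, and the shares given next were not matched for the number of annotated transcripts per gene. A transcript marked for nonsense-mediated decay was annotated for 26 of 38 tested members (68.4%) and for 27.4% of all tested genes with an entry, and a retained-intron transcript for 78.9% against 55.5%. The counts are sums over a gene's exons, and a change in such isoforms cannot be told apart from a change in the coding mRNA.

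Promoter sequences, from 250 bases before to 50 bases after the start in RefSeq (GRCm38.p6), were found for 37 of the 41 members. Rnps1 and Hnrnpll had no entry. Shown are 2 members that were higher, Hnrnpc and Hnrnpa2b1, and 2 that were lower, Hnrnpab and Srsf2, chosen after their values were seen, because they are the most abundant called members with an entry in each direction. Capitals mark the letters of the CCAAT box (CCAAT), the TATA box (TATAAA) and the GC box (GGGCGG) on either strand, with overlapping matches joined. The windows are chr14:52103972-52104271 for Hnrnpc, chr6:51469845-51470144 for Hnrnpa2b1 (the first of its 2 entries), chr11:51606832-51607131 for Hnrnpab and chr11:116853045-116853344 for Srsf2, each printed 5′ to 3′ on the minus strand on which the gene lies.
Hnrnpc: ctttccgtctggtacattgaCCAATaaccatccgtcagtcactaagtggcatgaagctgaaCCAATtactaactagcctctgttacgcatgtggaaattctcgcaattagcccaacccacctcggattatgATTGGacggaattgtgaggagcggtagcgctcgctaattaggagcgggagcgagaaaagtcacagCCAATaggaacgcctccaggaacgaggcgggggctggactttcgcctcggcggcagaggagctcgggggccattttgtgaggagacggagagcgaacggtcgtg
Hnrnpa2b1: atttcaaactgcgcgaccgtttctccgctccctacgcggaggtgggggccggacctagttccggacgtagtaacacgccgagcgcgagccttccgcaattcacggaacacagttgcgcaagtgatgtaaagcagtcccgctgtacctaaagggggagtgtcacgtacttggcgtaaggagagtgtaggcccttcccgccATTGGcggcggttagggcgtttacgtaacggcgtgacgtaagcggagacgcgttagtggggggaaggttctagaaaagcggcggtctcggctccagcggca
Hnrnpab: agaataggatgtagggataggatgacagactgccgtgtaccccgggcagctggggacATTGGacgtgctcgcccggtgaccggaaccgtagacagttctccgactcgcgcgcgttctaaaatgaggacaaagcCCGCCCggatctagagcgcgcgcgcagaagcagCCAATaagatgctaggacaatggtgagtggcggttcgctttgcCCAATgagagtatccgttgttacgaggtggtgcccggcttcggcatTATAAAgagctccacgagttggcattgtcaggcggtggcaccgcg
Srsf2: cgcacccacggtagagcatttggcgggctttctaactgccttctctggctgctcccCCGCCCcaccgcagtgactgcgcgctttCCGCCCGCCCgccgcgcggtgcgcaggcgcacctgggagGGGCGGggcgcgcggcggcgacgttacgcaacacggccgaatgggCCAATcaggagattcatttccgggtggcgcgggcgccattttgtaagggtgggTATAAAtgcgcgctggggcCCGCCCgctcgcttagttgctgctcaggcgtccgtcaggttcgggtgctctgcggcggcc

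The CCAAT box, bound by NF-Y, was found 4 times in the Hnrnpc window and 3 times in that of Hnrnpab. The TATA box letters TATAAA were found in the windows of Hnrnpab and Srsf2 and not in those of Hnrnpc and Hnrnpa2b1. The letters GGGCGG, the GC box bound by Sp1, were counted 5 times for Srsf2 and 1 time for Hnrnpab. Of the called members with an entry but not shown, Srsf6 (lower) had 0 TATAAA, 0 CCAAT and 2 GGGCGG. Hnrnph2 (higher) had 0 TATAAA, 3 CCAAT and 2 GGGCGG. Among the 37 members with an entry, 54.1% held CCAAT, 75.7% GGGCGG and 10.8% TATAAA, beside 39.1%, 64.9% and 6.37% of tested genes and 37.4%, 35.7% and 13.6% of all 32851 promoters. The ETS core, searched as CCGGAAG, was in 16.2% of the members' windows, 20% of those of tested genes and 8.86% of all promoters, and the E-box, searched as CACGTG, in 13.5%, 10.6% and 7.15%. With 3 higher and 3 lower members with an entry, these matches are descriptions of the windows only.

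The zygotic genotype was not balanced between the maternal groups, so members were also compared within each group. Between 5 Ehmt2M/Z and 5 Ehmt2M/+ embryos 0 of 38 members and 0.0% of 12195 genes were called by edgeR, with 1 member (Ptbp2) at an unadjusted p under 0.05 (2.21% of all genes), and DESeq2 called 0 members as well. Rnps1 averaged 120 ± 27.7 CPM with no zygotic copy (Ehmt2M/Z) and 101 ± 34.0 CPM with 1 (Ehmt2M/+), each with n = 5. For Srsf2 these were 484 ± 260 and 538 ± 277 CPM. The 95% confidence intervals of the log2 difference were -0.34 to 0.87 for Rnps1 and -1.01 to 0.71 for Srsf2. They were -0.36 to 1.27 for Hnrnph2 and -1.0 to 0.26 for Hnrnpll. These intervals are for 1 zygotic copy and do not measure the part of zygotic genotype in the differences between the maternal groups. Between 3 +/- and 6 +/+ controls, 0 of 38 members and 0.0% of 12646 genes were called by edgeR. Srsf3 and Tra2a were at an unadjusted p under 0.05 (4.52% of all genes), and DESeq2 called 0 members. The 95% confidence intervals between these controls were -0.46 to 1.07 for Rnps1 and -0.51 to 0.63 for Srsf2. For Hnrnph2 and Hnrnpll they were -0.81 to 1.3 and -0.93 to 0.44.

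When only +/- embryos were compared, 5 Ehmt2M/+ against 3 controls, 0 members were called, and only 1 of 13401 genes was (0.00746%). With the number of functional zygotic copies as a covariate over all 19 embryos, 0 members and 0.0255% of genes were called. All 8 members kept their direction in both fits. The log2 fold change was 1.12 for Rnps1 (unadjusted p = 0.0118, adjusted p = 0.637), -1.10 for Srsf2 (p = 0.0127, adjusted p = 0.641), -0.91 for Srsf6 and -1.01 for Hnrnpab in the matched edgeR fit, and these 4 were the only members at an unadjusted p under 0.05 (6.76% of all genes). All 8 were closer to 0 than over all embryos, the other 4 at 0.73 for Hnrnpa2b1, 0.53 for Hnrnpc, 0.58 for Hnrnph2 and -0.51 for Hnrnpll. Ehmt2Cntr replicate 10 was 1 of the 3 controls in this fit. It was the control nearest to the mutants for Srsf6, Hnrnpab, Hnrnpa2b1 and Hnrnph2, and its part in these estimates was not tested. In this matched set all 5 Ehmt2M/+ embryos were above the 3 controls for Rnps1 (53.3 to 143 against 42.8 to 47.2 CPM) and Hnrnpc (768 to 1400 against 550 to 733 CPM), as for 2.77% of all genes tested in the comparison of 19 embryos. All 5 were below them for Srsf2 (231 to 969 against 982 to 1260 CPM) and for the uncalled Hnrnpr (61.7 to 88.6 against 89.8 to 119 CPM), as for 2.81% of those genes.

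**Figure D4:**
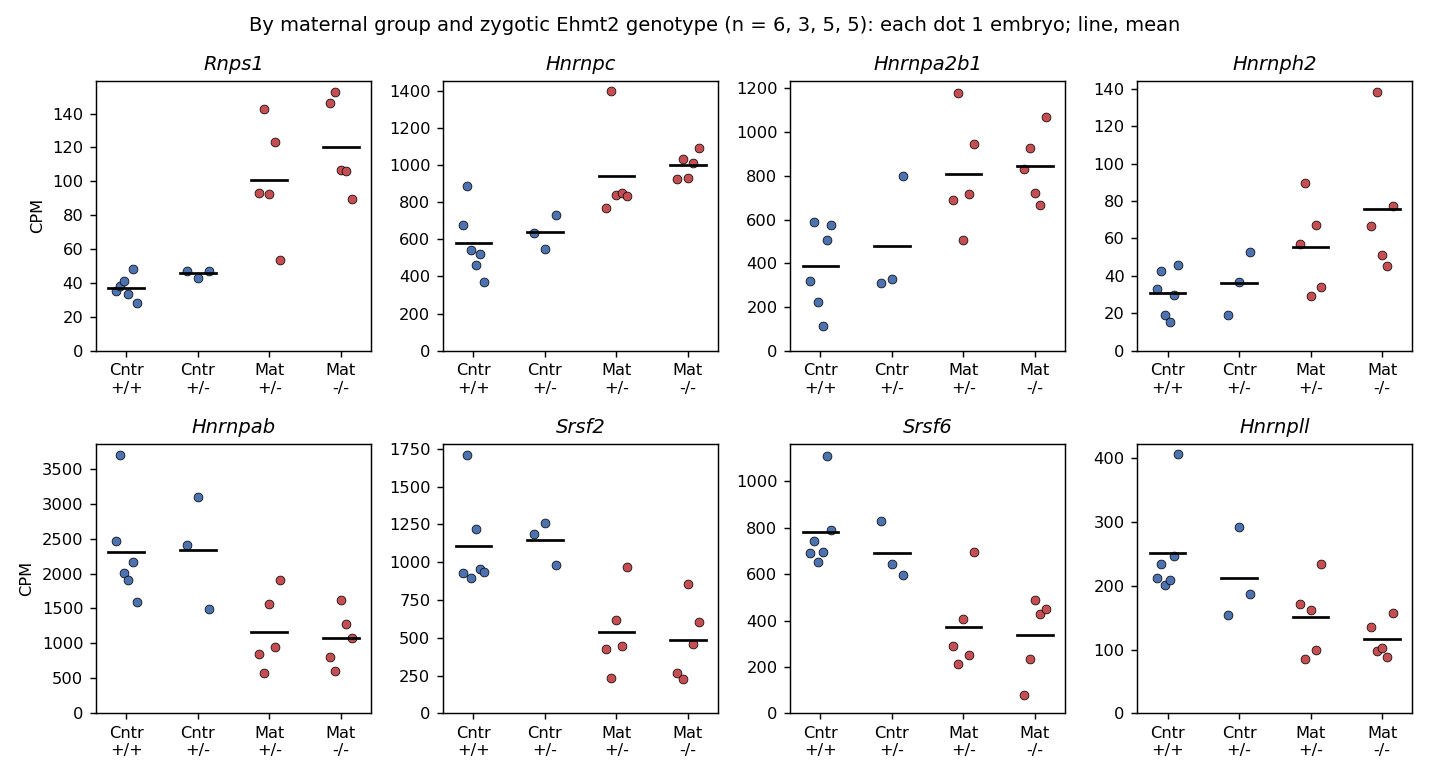
CPM (y axis, from 0) of the 8 called members by maternal group and zygotic Ehmt2 genotype: 6 +/+ and 3 +/- controls (blue), 5 +/- and 5 -/- Ehmt2Mat embryos (red), with the class mean as a line. Neighbouring class means lie farthest apart between the +/- controls and the +/- Ehmt2Mat embryos, as for Srsf2 (1140 and 538 CPM), for every gene shown except Hnrnph2 (36.2, 55.4 and 75.5 CPM in +/- controls, Ehmt2M/+ and Ehmt2M/Z).

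Genes that work with these proteins were counted in 4 lists, of which 58 genes were tested, 4 higher and 6 lower (17.2% called). Over all tested genes 9.35% were called, and 19.2% when only genes with at least 10 counts in every embryo were tested. Among 9 hnRNP proteins with other symbols, the poly(C)-binding genes Pcbp1 (-0.82, adjusted p = 0.0134) and Pcbp2 (-0.73, adjusted p = 0.0380) and the Hnrnpc relative Raly (-1.06, adjusted p = 0.0170) were lower. Raly thus differed in direction from Hnrnpc, with means of 57.2 ± 25.5 CPM in controls against 27.5 ± 7.09 CPM in mutants. Of 11 kinases and import receptors of SR proteins and hnRNPs, Tnpo2, a nuclear import receptor, was higher, from 8.94 ± 4.38 to 28.7 ± 11.3 CPM (log2 fold change 1.68, adjusted p = 0.00525). When embryo number was added to the edgeR fit as a block, Raly (adjusted p = 0.104), Pcbp2 (0.0732) and Tnpo2 (0.0571) were not called. The SR protein kinase gene Srpk1 had -0.05 and was not called.

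In the exon junction complex, its accessory complexes and nonsense-mediated decay, where Rnps1 acts, 2 of 17 genes were higher and 2 lower. This was 23.5% of the list, beside 9.35% of all tested genes and 19.2% when only genes with at least 10 counts in every embryo were tested. Magoh, a core subunit of the junction complex, had 196 ± 72.6 CPM in controls and 372 ± 38.7 CPM in Ehmt2Mat (log2 fold change 0.93, adjusted p = 0.00293). Its partners Rbm8a (0.55, adjusted p = 0.069) and Eif4a3 (0.44, adjusted p = 0.159) were not called, and neither were Acin1, Pnn and Sap18, the partners of Rnps1 (-0.44, 0.13 and 0.29). The decay factors Upf3a (-0.79, adjusted p = 0.0380) and Upf3b (-0.95, adjusted p = 0.0266) were lower. Upf3a was lost in 14 of the 19 fits that each left out an embryo (adjusted p up to 0.0737), Pcbp2 in 11 (up to 0.0748), and Upf3b without Ehmt2Cntr replicate 5 or 9 (0.0540 and 0.0559). Of 21 other splicing regulators only Elavl1 (HuR), which binds AU-rich and U-rich RNA, was called, from 183 ± 71.2 to 69.4 ± 32.1 CPM (log2 fold change -1.40, adjusted p = 0.00237).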

How the data were processed

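For every embryo the authors deposited unnormalized read counts over 34937 genes of Ensembl release 82 (GRCm38). Per the file headers, featureCounts 1.5.0 counted reads on exons with an overlap of at least 10 bases, without strand, for every gene a read overlapped, and kept reads with a multi-mapping flag. The aligner of these files is not given in their headers. The submitters' notes list TopHat2, featureCounts and DESeq2, and the study's methods describe TopHat2 with SeqMonk for genes and uniquely mapped reads with featureCounts for repeats, so how reads with several positions were treated is uncertain. Reads were single-end and 50 bases long. The labels list 10 controls, and control 4 was not analysed here.

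Counts of 19 embryos were fitted in edgeR 4.0.16 (R 4.3.3) with its filter on low counts, TMM and the quasi-likelihood test (glmQLFit and glmQLFTest), with Benjamini-Hochberg adjustment over all tested genes and no covariate. CPM used TMM-scaled library sizes. Symbols were matched for 34599 genes. Exon overlaps came from the file coordinates, and shared 50-base windows and transcript types from GENCODE M21. The members, gene lists and tests were chosen with earlier results of these data known. Values in full were given for called members and for the member of each role group with the highest RPKM, and, of the related lists and markers, for called genes, some of which are counted but not reported here by name. Other genes named beside them were chosen after their values were seen. Alternatives were RLE and upper-quartile scaling, DESeq2 1.42.0, other filters, thinned counts, removal of mitochondrial genes or of a slope on exon length, zygotic genotype, a replicate block and each embryo left out. Counts of this comparison were also simulated from the model fitted by edgeR, with 100 of 11754 genes changed by each size. There edgeR recovered 59% of genes changed by 2 on the log2 scale and 8% of those changed by 1. Of its calls 2.9% were false (20.2% for DESeq2, which recovered 74% and 17%), so smaller changes could be missed. The simulation used edgeR's own model and changed fewer genes than were called in the data. Its rates therefore need not hold for the data and do not rank the tools. No 2 embryos had identical counts. With no information on mothers, p-values treat embryos as independent.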

Additional observations from a re-analysis of the deposited data

Results flagged for a closer look

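In 26 groups (the called members, the most abundant member of each role group and Ehmt2, in controls and in Ehmt2Mat), the highest and lowest embryos were checked for a gap to the nearest other embryo by Dixon's criterion, which chance passes in about 1 of 20 groups. Srsf2 stood at 1710 CPM in Ehmt2Cntr replicate 5, where the next control had 1260 CPM, and without that embryo its log2 fold change was -1.04 (edgeR, adjusted p = 0.0120). Srsf6 stood at 1110 CPM in Ehmt2Cntr replicate 8, with 829 CPM in the next control, and the log2 fold change without it was -1.0 (edgeR, adjusted p = 0.0219). Hnrnpc stood at 1400 CPM in Ehmt2Mat replicate 3, with 1090 CPM in the next mutant, and the log2 fold change without it was 0.62 (edgeR, adjusted p = 0.0158).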

How the results depend on the processing

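The 8 members called kept their direction in the 12 other settings that give a fold change, and all 8 were called under RLE and upper-quartile scaling, with no filter, with thinned counts, without mitochondrial genes and with the exon length slope removed. DESeq2 called 6 higher and 7 lower members (13, with Srsf11, Hnrnpd, Hnrnpdl, Ptbp1 and Hnrnpa1 added) and 2068 genes in all, against 1099 by edgeR. On simulated counts 20.2% of DESeq2's calls were false. Those counts were drawn from edgeR's own model, so this rate need not hold for the calls made here. With zygotic copies as a covariate 0 higher and 0 lower members were called (3 genes in all), and with only +/- embryos 0 and 0 (1 gene in all). Adjusted p-values of the 8 were then 0.167 to 0.953, and the latter fit holds 8 embryos. With a log2 fold change of at least 1 also required, 1 member was higher (Rnps1) and 3 were lower; the 1.00 of Hnrnph2 is just under 1 before rounding. Related genes were 0 higher and 0 lower with the covariate and with only +/- embryos, and 2 and 2 with the fold criterion. Srsf7 turned to 0.28 and Tra2a to 0.09 with the covariate, and to 0.24 and 0.15 with only +/- embryos; the cause was not tested.

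Same-numbered embryos of the groups did not deviate together (9 pairs, mean r = 0.0125, 0 over 0.1). The labels do not say that the numbers pair embryos, and whether same-numbered embryos were handled together is not known. A replicate block gave 7 members (Hnrnph2 lost), 3 related genes lower, 693 genes in all and 0.03 for Srsf7, and with the exon length slope also removed it gave 6 members (Hnrnpll lost too) and 3 related genes lower.

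Leaving out each embryo in turn gave 3 to 5 higher and 4 to 6 lower members, 3 to 6 related genes lower (3 without Ehmt2Cntr replicate 9) and a log2 fold change of -0.14 to 0.08 for Srsf7. Of the 8 calls 7 were kept in all 19 fits, and Hnrnph2 was lost in 8. With no filter the share of higher calls among all genes moved from 46.8% to 54.8%, and the 8 members stayed called. Depth limits Hnrnpl, Hnrnpul1 and Ptbp2 most, whose lowest embryos had 11, 12 and 3 counts.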
